A study of Mus musculus with 5 samples.

Results

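The mitochondrial respiratory chain genes were examined in CUT&RUN peak lists from mouse muscle stem cells (MuSCs), the resident progenitors of skeletal muscle. CUT&RUN cuts and sequences the DNA beside an antibody-bound protein, and a peak is an interval where a caller found more fragments than its background estimate. Genes were chosen by name from the GENCODE M21 annotation of the mm10 genome. They comprise the protein-coding genes named for subunits of complex I (Nduf), complex II (Sdha, Sdhb, Sdhc and Sdhd), complex III (Uqcr and Cyc1), complex IV (Cox4 to Cox8) and complex V (Atp5), together with the complex I assembly factors that share the Nduf prefix. This gave 95 gene IDs under 94 symbols (Atp5o has 2 IDs) of 21951 protein-coding genes by a rule on gene names alone. Ndufa4 and Ndufa4l2, though named Nduf, are counted with complex IV. A gene was counted in a library when a peak lay within 3 kb of any of its annotated transcription start sites (TSSs).

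JunB, a subunit of the AP-1 transcription factor, was profiled in MuSCs of the Young group (3 libraries labelled as biological replicates) and of the Aged group (1 library). Acetylated histone H3 lysine 27 (H3K27ac), a mark of active promoters and enhancers, was profiled in 1 library of MuSCs with no age given. The sample labels give no strain, genotype, sex or age in months, and the series design text speaks of DMSO and MVC treated mice, whereas the sample titles name only age, so the groups are used here as titled. Values over the JunB libraries are given in the order young 1, young 2, young 3 and aged. With 1 aged library no test between ages was possible, and the difference between the age groups cannot be told apart from a difference between libraries.

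The respiratory chain sits in the inner mitochondrial membrane. Complexes I and II take electrons from NADH and succinate, complex III passes them to cytochrome c, complex IV hands them to oxygen, and complex V uses the resulting proton gradient to make ATP. Most subunits are encoded in the nucleus, in housekeeping genes whose promoters are known for sites of NRF1, the ETS factor GABP and YY1. Quiescent MuSCs hold few mitochondria, and respiration increases when they activate. AP-1 binds the 7-base motif TGAGTCA, which reads TGACTCA on the other strand.

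The 3 young JunB lists held 9534, 4884 and 3863 peaks, the aged JunB list 14123 and the H3K27ac list 39865. The weakest listed peak had a −log10 p of 3.01, 5.33, 5.22 and 3.01 over the JunB lists, so the lists did not stop at the same strength. Read depth by library is unknown. The lists hold no read counts, and the study's reporting summary gives a single read total without naming a library. A gene without a listed peak is therefore only a gene without a call at that list's limit, and peak heights are compared within a library only. Of 8 MuSC marker genes, 5 had an H3K27ac peak (Myod1, Vcam1, Itga7, Cdh15 and Sdc4) and Pax7, Myf5 and Calcr had none. None of 3 leukocyte markers, 1 of 3 endothelial, 1 of 3 fibro-adipogenic and 1 of 4 myofibre markers had one, against 49.8% of all protein-coding genes. The endothelial Pecam1 (−log10 p 20.8) and the myofibre Myh1 (17.98) stood above the highest MuSC marker, Myod1 (13.8), and the fibro-adipogenic Dcn (9.35) below it. JunB was called at 2, 3, 1 and 5 of the 8 MuSC markers (25%, 37.5%, 12.5% and 62.5%). Over all protein-coding genes the shares were 11.1%, 7.79%, 5.95% and 23.9%. The leukocyte marker Cd68 had a JunB peak in all 4 JunB libraries, as did Myod1. The myofibre Myh1 had one in young 1, young 2 and aged, and the fibro-adipogenic Pdgfra in aged. No endothelial marker had one. Cell purity was not tested.

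H3K27ac marked nearly all of the respiratory chain. A peak was called at 85 of the 95 genes (89.5%, exact binomial 95% interval 81.5 to 94.8%), against 49.8% of all protein-coding genes, a difference of 39.6 percentage points. Intervals here cover counting error only. All 7 core subunits of complex I had one, as did 27 of its 29 accessory subunits and all 8 assembly factors. All 4 complex II genes and all 9 complex III genes were marked, and so were 17 of 18 complex V genes. Complex IV stood lowest, with 13 of 20.

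JunB was called at few of these genes in young cells and at many in the aged library. In the 3 young lists the counts were 11 (11.6%, interval 5.92 to 19.8%), 8 (8.42%, 3.71 to 15.9%) and 9 (9.47%, 4.42 to 17.2%). Over all protein-coding genes the shares in the same lists were 11.1%, 7.79% and 5.95%, inside each interval. In the aged library 40 genes had a JunB peak (42.1%, 32.0 to 52.7%) against 23.9% of all protein-coding genes, a difference of 18.2 points. The young mean was 9.33 ± 1.53 genes (SD, n = 3), and the aged count was higher by 30.7 genes. In percent, the respiratory chain went from a young mean of 9.82 ± 1.61% to 42.1%, and all protein-coding genes from 8.28 ± 2.61% (SD, n = 3) to 23.9%.

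**Figure D1:**
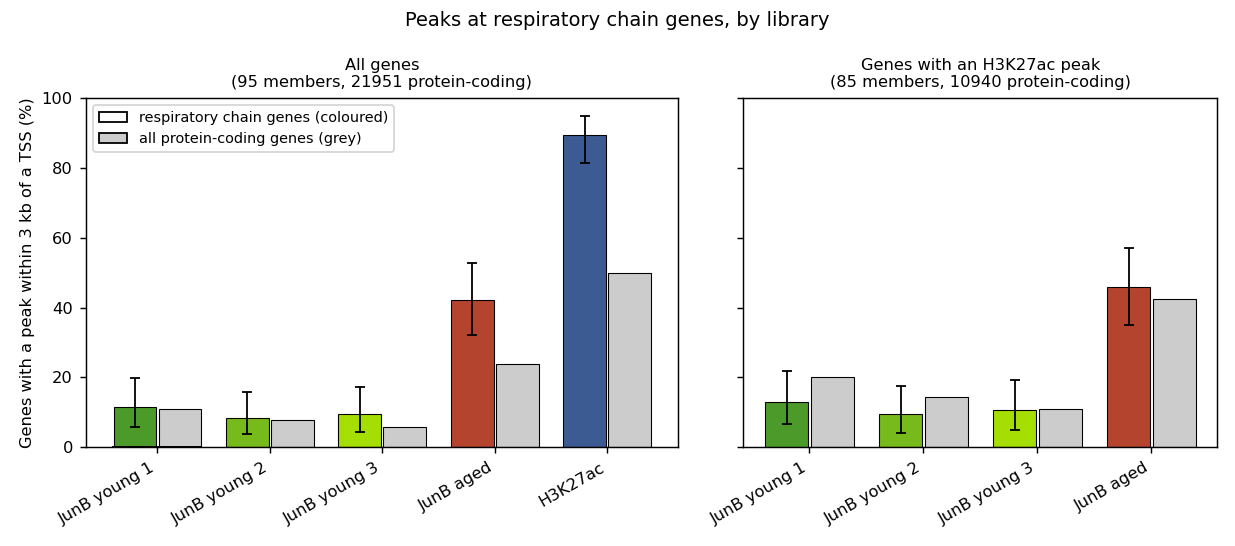
Share of genes with a peak within 3 kb of a TSS (y axis, percent) in each library (x axis), for all genes on the left and for genes with an H3K27ac peak on the right. Coloured bars are the respiratory chain genes with exact 95% binomial intervals, grey bars all protein-coding genes; on the left the aged JunB and H3K27ac bars stand above grey beyond their intervals, and on the right the grey value lies inside each of the 4 intervals.

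The difference from other genes in the aged list was smaller among genes that carry H3K27ac. Among the 85 marked respiratory chain genes, 39 had an aged JunB peak (45.9%, interval 35.02 to 57.04%), against 42.4% of the 10940 marked protein-coding genes, a difference of 3.47 points. In the young libraries 11, 8 and 9 of the 85 had a peak (12.9%, 9.41% and 10.6%), below or level with the 20.0%, 14.5% and 11.0% of all marked genes. Read against other marked genes, the respiratory chain thus differed by −7.09, −5.09, −0.362 and 3.47 points over the JunB libraries, and the background lay inside the interval of the respiratory chain share each time (6.64 to 21.98%, 4.15 to 17.7% and 4.96 to 19.2% in the young lists). The aged difference of 3.47 points turned to −0.0468 with every JunB list at its strongest 3863 peaks, and to −6.52 at 2000 peaks per list, where only 16 respiratory chain genes kept H3K27ac.

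The number of peaks in a list bears directly on these counts. When each JunB list was limited to its strongest 3863 peaks, the length of the shortest, the counts were 5, 6, 9 and 14 (14.7% in the aged list). All protein-coding genes then stood at 5.52%, 6.08% and 5.95% in the young lists and 8.83% in the aged one. With the strongest 2000 peaks of each list the respiratory chain counts were 2, 3, 6 and 9, and the shares of all protein-coding genes 2.86%, 2.95%, 2.92% and 4.57%, against 2.11%, 3.16%, 6.32% and 9.47% of the respiratory chain. The aged library thus kept the highest count at equal list length, and its excess over the young mean shrank from 30.7 to 7.33 and 5.33 genes.

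**Figure D2:**
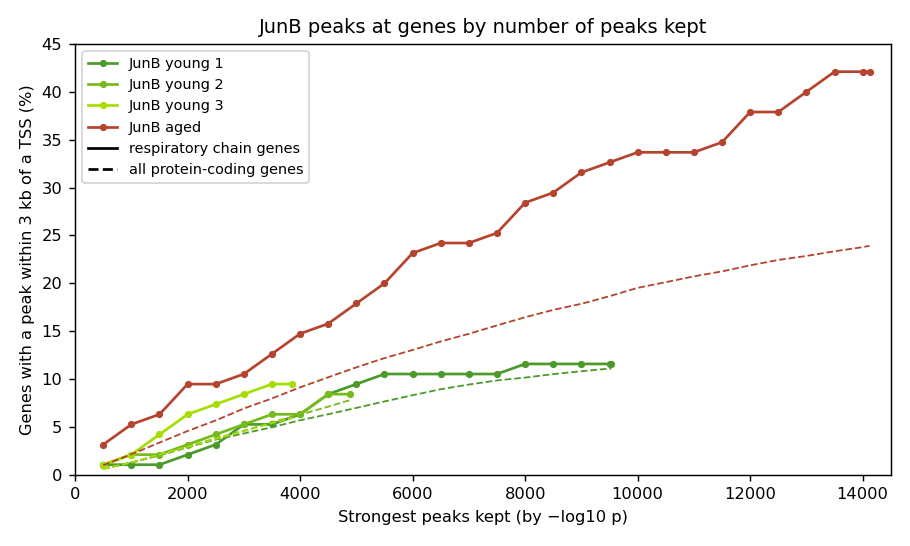
Percent of genes with a JunB peak within 3 kb of a TSS (y axis) as peaks are added from the strongest down (x axis, number of peaks kept), with solid lines for the 95 respiratory chain genes and dashed lines for all protein-coding genes in each of the 4 JunB libraries. The aged lines run above the young ones at equal numbers of peaks and reach 42.1% and 23.9% at the full list of 14123.

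By pattern over the 4 JunB libraries, 54 genes had no JunB peak (56.8%, against 74.1% of all protein-coding genes), 4 had one in every library (4.21% against 4.40%) and 26 had one in the aged library alone (27.4% against 13.1%). A single gene, Cox7a2, had a peak in a young library and not in the aged one (background 1.95%), and none had peaks in at least 2 young libraries and not in the aged one (background 0.478%). Of the 15 genes with any young peak, 14 were also called in the aged library (93.3%, against 84.7% of such protein-coding genes). Conversely, 14 of the 40 genes called in the aged library had a young peak (35%, against 45.2%).

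The 4 genes with JunB in every library were 3 of complex V and 1 of complex I. Atp5s (ENSMUSG00000054894.6, chr12:69724950-69744660), which encodes coupling factor B, had the strongest JunB peak of all respiratory chain genes. Its −log10 p was 55.7, 47.01, 43.7 and 30.05, with fold enrichments of 17.02, 14.97, 17.3 and 13.3. Within its own list the peak ranked 360th of 9534, 452nd of 4884, 247th of 3863 and 271st of 14123. The window also holds the TSS of another coding gene, so the peak cannot be given to Atp5s alone.

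Atp5g1 (ENSMUSG00000006057.15, chr11:96068852-96075670), 1 of the genes for the membrane ring subunit c that turns as protons pass, had −log10 p of 17.5, 18.1, 18.3 and 25.04. Its fold enrichments were 8.65, 9.001, 10.2 and 11.1. The young values lay close together and the aged peak was the 455th strongest of its library. Atp5mpl (ENSMUSG00000021290.6, chr12:111961375-111966977), a small subunit of the membrane part, had −log10 p of 9.73, 14.9, 15.6 and 26.9. Ndufv2 (ENSMUSG00000024099.15, chr17:66078638-66101559), an iron-sulphur subunit of the NADH-oxidising arm of complex I, had 9.43, 16.5, 10.6 and 14.2. No other coding gene has a TSS within 3 kb of Atp5g1, Atp5mpl or Ndufv2.

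The summits of these peaks lay at like places in every library. Measured from the main TSS, the one most transcripts share, the Atp5g1 summits were at −99, −139, −142 and −212 bp and those of Ndufv2 at −284, −269, −311 and −275 bp, all upstream of the gene. Atp5s summits lay at 212, 150, 150 and 156 bp, and Atp5mpl summits at 107, 70, 107 and 57 bp, both in 5′ untranslated sequence.

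Another 5 genes had JunB in 2 young libraries and the aged one. Ndufa5, an accessory subunit of complex I, had −log10 p of 5.63 in young 1, 14.4 in young 3 and 6.79 in aged. Ndufb9, of the membrane arm, had 14.5, 12.4 and 12.2 in the same libraries. Cox5a, a subunit of complex IV, had 19.02, 26.02 and 16.4. None of these 3 genes had a call in young 2. The Ndufb9 summits lay nearer to the TSS of Tatdn1, 57, 137 and 22 bp away in young 1, young 3 and aged. Uqcrq, a small subunit of complex III, was called at 32.7 in young 2, 17.4 in young 3 and 14.8 in aged, but not in young 1. Atp5l, subunit g of complex V, was called at 13.9 in young 1, 12.3 in young 2 and 20.1 in aged, but not in young 3.

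The sequences under the aged summits are shown for the AP-1 letters they hold or lack. Each line gives 101 bases centred on the aged JunB summit, read 5′ to 3′ on the strand of the gene from the GRCm38 (mm10) reference, for genes called in the aged library and in at least 2 young ones. A single capital marks the summit base, and the run of 7 capitals in Atp5l marks the AP-1 motif.
Atp5g1, chr11:96075832-96075932, minus strand: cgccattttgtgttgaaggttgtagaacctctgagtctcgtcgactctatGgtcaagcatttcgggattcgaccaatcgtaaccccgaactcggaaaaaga
Ndufv2, chr17:66101784-66101884, minus strand: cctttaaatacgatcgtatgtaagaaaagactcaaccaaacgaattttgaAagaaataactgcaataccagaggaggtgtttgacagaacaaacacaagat
Atp5l, chr9:44921097-44921197, minus strand: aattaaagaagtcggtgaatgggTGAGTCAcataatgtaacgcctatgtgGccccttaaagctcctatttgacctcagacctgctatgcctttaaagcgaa
Cox5a, chr9:57520895-57520995, plus strand: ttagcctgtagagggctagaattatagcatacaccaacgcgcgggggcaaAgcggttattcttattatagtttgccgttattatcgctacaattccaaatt
Uqcrq, chr11:53430557-53430657, minus strand: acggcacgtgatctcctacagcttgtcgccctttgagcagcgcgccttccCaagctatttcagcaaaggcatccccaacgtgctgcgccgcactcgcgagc
The Atp5g1, Ndufv2, Atp5l and Cox5a windows lie upstream of their genes, and the Uqcrq summit lies in a coding exon, 220 bp past its main TSS. The windows of Atp5s, Atp5mpl and Ndufb9 reach into untranslated exon and are not printed.

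Atp5l alone had a whole AP-1 motif within 50 bp of a JunB summit. Its motif was 21 bp from the aged summit and 34 bp from that of young 1. Counted over peaks at respiratory chain genes, that is 1 of 11, 0 of 8, 0 of 9 and 1 of 42. Over all JunB peaks within 3 kb of a coding TSS the shares were 4.75%, 3.54%, 5.26% and 2.75%. Within 100 bp of the summit the counts were 1 of 11, 1 of 8, 0 of 9 and 3 of 42. The shares of all such JunB peaks were then 11.6%, 10.5%, 11.8% and 6.75%. A match describes letters, not binding, and the lack of one in these windows says nothing of the factor.

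Of 5 genes with JunB in 1 young library and the aged one, Sdhc, a membrane anchor of complex II, had −log10 p of 7.46 in young 1 and 10.6 in aged. Uqcr10, of complex III, had 9.16 in young 2 and 10.4 in aged, and Ndufb2, of complex I, 9.29 and 7.93 in the same ones. The Uqcr10 summits lay slightly nearer to the TSS of Zmat5, 163 and 166 bp away. Cox7a2l, known for its part in joining complexes III and IV, had 9.49 in young 3 and 6.66 in aged. Atp5d, the delta subunit of complex V, had 9.20 in young 1 and 9.84 in aged. Cox7a2, a common form of its complex IV subunit, had 8.43 in young 1 only.

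The 26 genes with JunB in the aged library alone were spread over all 5 complexes. They were led by Ndufa13 of complex I at −log10 p 19.8 (9.35-fold enrichment), followed by Atp5b, the catalytic beta subunit of complex V, at 14.3. Both of these peaks lay nearer to the TSS of another coding gene, and the peak at the main TSS of Atp5b stood at 8.33. Others among the 12 strongest were Ndufb4 at 9.46, Ndufa2 and Ndufaf3 at 8.94, Ndufa7 and Uqcrh, the hinge protein of complex III, at 8.33, Ndufa6 at 7.93, Ndufa11 at 7.77, Ndufb6 at 7.48 and Ndufv1, the flavin-binding core subunit of complex I, at 7.13. The peaks of Ndufa2, Uqcrh and Ndufa11 also lay nearer to another coding gene's TSS (Ik at 43 bp, Lrrc41 at 50 bp and Vmac at 217 bp). At the other end stood Ndufb7 and Cox6a1, both at 4.28, and Sdhb, the iron-sulphur subunit of complex II, at 4.37. These values lie below the 5.33 and 5.22 at which the lists of young 2 and young 3 stop. With all JunB peaks held to a −log10 p of at least 5.33, 32 genes kept an aged peak and the young counts stayed at 11, 8 and 9.

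**Figure D3:**
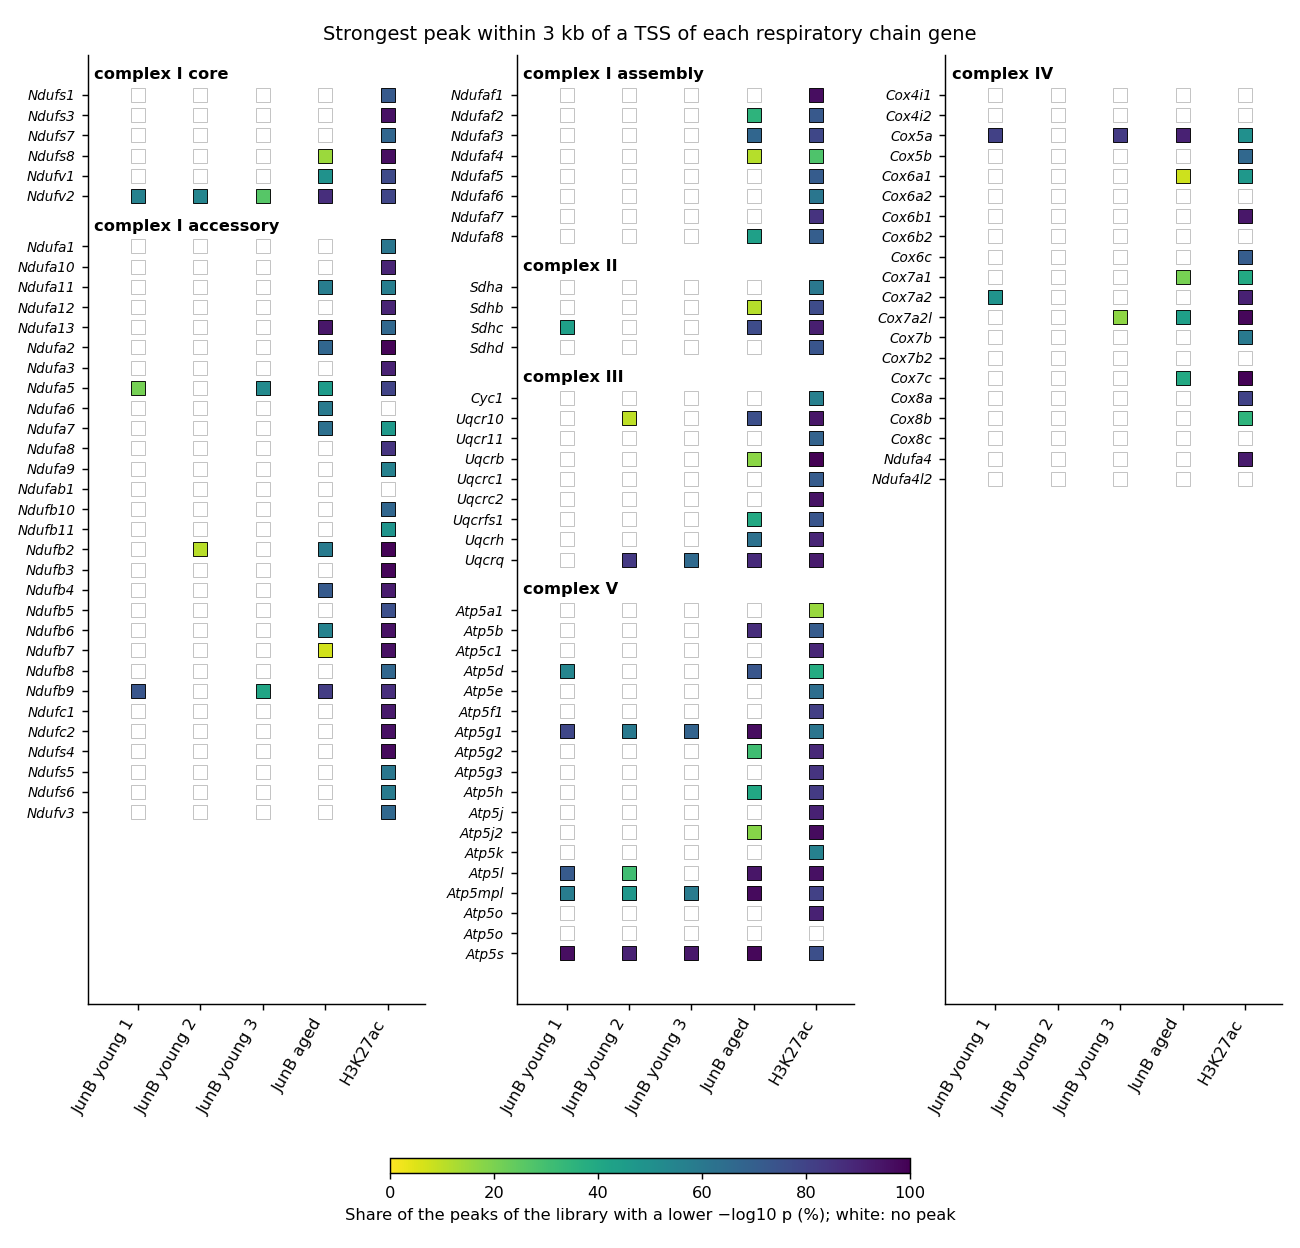
Strongest peak within 3 kb of a TSS for 94 of the 95 gene IDs (rows, by complex) in each library (columns), with the colour giving the percent of that library's peaks that had a lower −log10 p and white squares marking no peak. The H3K27ac column is filled for nearly all genes, the aged JunB column for many and the young columns for 11, 8 and 9, with Atp5s, Atp5g1, Atp5mpl and Ndufv2 filled throughout.

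Split by complex, the aged JunB calls fell on 4 of 7 core, 11 of 29 accessory and 4 of 8 assembly genes of complex I, 2 of 4 genes of complex II, 5 of 9 of complex III, 5 of 20 of complex IV and 9 of 18 of complex V. Complex V also had the most young calls, 5, 4 and 3 of its 18 genes, against 3, 2 and 3 of the 44 genes of complex I. The complex I assembly factors had no young call, and 4 of them, Ndufaf2, Ndufaf3, Ndufaf4 and Ndufaf8, had an aged one. In complex III, Uqcrq and Uqcr10 made up the young calls and Uqcrb, Uqcrfs1 and Uqcrh were added in the aged library. Over all protein-coding genes the shares were 11.1%, 7.79% and 5.95% in the young lists and 23.9% in the aged one. Complex IV, at 25% in the aged library, stood near that share. The counts by complex are small and were not tested against each other.

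JunB peaks at the respiratory chain lay close to start sites. All 11, 8, 9 and 42 of them had a summit within 500 bp of the TSS of a coding gene, whereas over all JunB peaks within 3 kb of a coding TSS the shares were 61.0%, 64.9%, 64.1% and 72.7%. The median distance to the nearest TSS of the respiratory chain gene itself was 172, 156, 187 and 170.5 bp. In the aged library 21 summits lay upstream and 21 downstream of the main TSS, and 19 fell outside the gene, 7 in introns, 9 in untranslated exons, 6 in coding exons and 1 in a non-coding exon. The median −log10 p of the aged peaks was 7.93, near the 7.90 of all aged peaks at coding genes.

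**Figure D4:**
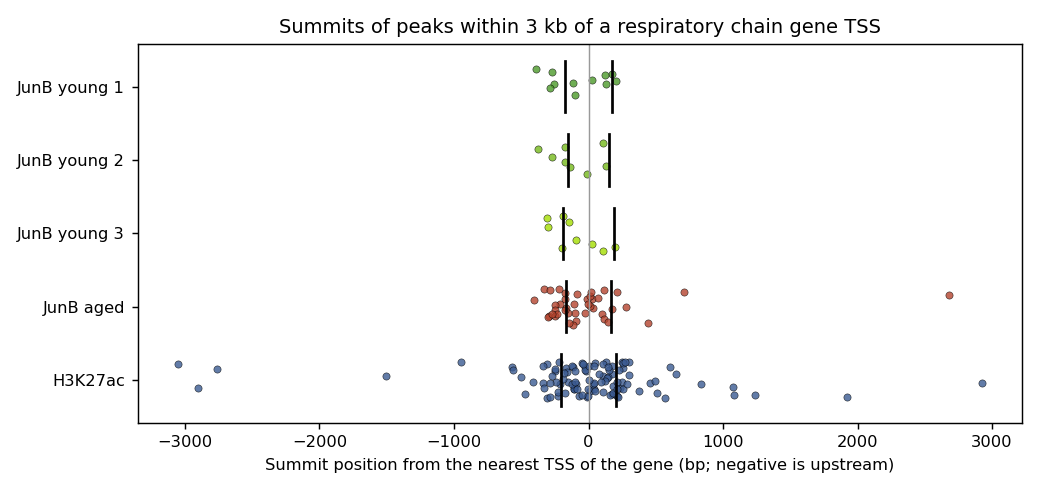
Position of each peak summit relative to the nearest TSS of its respiratory chain gene (x axis, bp, negative is upstream), 1 row of points per library, with black bars at plus and minus the median distance. JunB summits cluster within 500 bp in all 4 libraries, apart from 2 aged summits farther out, and H3K27ac summits spread more widely.

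Many of these promoters are shared with a neighbour. A TSS of another coding gene lay within 1 kb of a TSS for 39 of the 95 genes (41.1%, against 14.6% of all protein-coding genes). In the aged library, 17 of those 39 (43.6%) and 23 of the 56 others (41.1%) had a JunB peak. Over all protein-coding genes the corresponding shares were 42.4% and 20.8%. The respiratory chain thus stood above the rest among genes with no near neighbour and level with it among the others. H3K27ac was called at 94.9% of the 39 and 85.7% of the 56, against 81.2% and 44.5% of all protein-coding genes in these classes. JunB among the marked genes of each class was not compared. Of the 42 aged peaks, 9 were nearer to another coding gene's TSS. The clearest case was Atp5b, whose stronger peak lay 2677 bp from its nearest TSS and close to Baz2a, and whose second peak lay 96 bp upstream of its main TSS. The Ndufa13 peak was likewise nearer to Tssk6, 338 bp away, than to Ndufa13, 712 bp away.

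Nearly all JunB peaks at these genes overlapped an H3K27ac peak: 11 of 11, 8 of 8 and 9 of 9 in the young replicates and 38 of 42 in the aged library. The exceptions included peaks of Atp5b, Atp5g2 and Ndufa6. By gene, all 11, 8 and 9 with a young JunB peak also had H3K27ac. Over all protein-coding genes with a young JunB peak, 2191 of 2437, 1586 of 1711 and 1198 of 1305 had it, so most such genes did. In the aged library, 39 of 40 genes with a JunB peak also had H3K27ac (97.5%, against 88.4% of all protein-coding genes with an aged JunB peak). The remaining gene was Ndufa6, an accessory subunit of complex I, with an aged JunB −log10 p of 7.93 and the nearest H3K27ac peak 3299 bp from its start.

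H3K27ac peaks at the respiratory chain were wider and somewhat stronger than elsewhere in the same library. Their 106 peaks had a median width of 952 bp against 750 bp over all peaks near coding genes, and a median −log10 p of 15.1 against 12.5, with 89.6% of summits within 500 bp of a coding TSS against 61.1%. Taking the strongest peak of each gene, the median was 17.4 over the 85 genes and 15.2 over all marked protein-coding genes. The highest values were those of Uqcrb (58.4) of complex III, Cox7c (51.7) of complex IV, and Ndufb2 (42.8), Ndufa2 (41.9) and Ndufb3 (38.5) of complex I. Of the 106 peaks, 20 had a summit nearer to another coding gene's TSS, among them those of Uqcrb (Gm10767, 177 bp) and Ndufa2 (Ik, 105 bp). Among the complexes, the median ran from 15.05 in complex IV to 22.9 in complex III. The genes with the highest H3K27ac values were not those with the highest JunB values. Uqcrb and Cox7c had aged JunB peaks of only 5.05 and 6.21 and no young one, and Atp5g1 had an H3K27ac value of 12.8.

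Of the 7 complex IV genes without H3K27ac, 6 were tissue-restricted forms. Several subunits of complex IV, Ndufa4 among them, come as a common form and a tissue-restricted one. Of 8 tissue-restricted forms 2 had an H3K27ac peak, against 83 of the 87 other genes. The 2 were Cox7a1 (−log10 p 9.65) and Cox8b (9.09), both forms of striated muscle, and both were weaker than their common counterparts Cox7a2 (23.8) and Cox8a (17.9). Cox6a2, the third striated muscle form, had no peak while Cox6a1 had one of 10.5. The forms known from lung (Cox4i2) and testis (Cox6b2, Cox7b2 and Cox8c) had none, nor had Ndufa4l2, known to respond to low oxygen, while Cox6b1, Cox7b and Ndufa4 stood at 26.98, 12.5 and 25.7. For JunB, 1 of the 8 had an aged peak (Cox7a1, 5.22) against 39 of 87 others, and none had a young one.

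The other 4 genes without H3K27ac are common forms or second entries. Cox4i1, the common form of its subunit, had its nearest listed peak 12495 bp away, and Ndufab1, the acyl carrier protein of complex I, 24450 bp away. They differ in this from nearly all other common forms, and neither had a JunB peak. Ndufa6 is described above, and the second Atp5o entry (ENSMUSG00000116933.1) had a peak 4025 bp away. With a window of 5 kb, 87 genes had an H3K27ac peak.

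Genes that work with the respiratory chain but are not its subunits were counted beside it. Of 50 such genes, 48 had H3K27ac, and 10, 7, 5 and 20 had JunB in the 4 libraries in turn. Their JunB shares of 20%, 14%, 10% and 40% stand against 11.6%, 8.42%, 9.47% and 42.1% of the respiratory chain and 11.1%, 7.79%, 5.95% and 23.9% of all protein-coding genes. Among 12 regulators of mitochondrial gene expression, H3K27ac was called at 11, including Ppargc1a (37.1), the coactivator of mitochondrial biogenesis, Nrf1 (31.4) and Tfam (30.2), the packaging factor of mitochondrial DNA. Aged JunB peaks were called at 3 of the 12, and Tfb1m, a methyltransferase of the mitochondrial ribosome's RNA, had JunB in every library, with −log10 p of 10.4, 16.95, 18.8 and 23.95. Among 38 assembly factors and carriers, 17 had an aged JunB peak (44.7%, against 23.9% of all protein-coding genes). Cox20, Coa7, Bcs1l and Ttc19, assembly factors of complexes III and IV, had a JunB peak in every library. With Tfb1m, 5 of the 50 genes did so, while 4.40% of all protein-coding genes had this pattern. Bcs1l stood at 12.7, 11.3, 12.3 and 15.1.

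Housekeeping sets of another kind were set beside these shares. Ribosomal protein genes (83) had JunB at 14.5%, 12.05% and 7.23% in the young lists and 50.6% in the aged one, with H3K27ac at 92.8%. Proteasome genes (50) had JunB at 24%, 18% and 16% in the young lists and 46% in the aged one, with H3K27ac at 92%. Thus the aged share of 42.1% and the H3K27ac share of 89.5% at the respiratory chain lay within 10 points of both sets, whereas the proteasome shares in young 1 and young 2 lay above the respiratory chain's intervals. These differences were not tested.

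The letters of the NRF1, YY1 and ETS motifs stood in a larger share of these promoters than of all coding promoters. For AP-1 the direction depended on the window. Promoters were read from 250 bases before to 50 after the main TSS and searched on both strands, and no motif string holds another. The AP-1 motif stood in 2 of 95 promoters (2.11%), Atp5c1 and Uqcrh, against 4.56% of all coding promoters. It stood in 9 (9.47% against 8.59%) when 500 bases before to 100 after were read. Of promoters with H3K27ac, 3.21% held it in the narrower window and 6.71% in the wider. In the wider window 6 of 40 genes with an aged JunB peak (15%) and 3 of 55 without (5.45%) held it. In the narrower window these were 1 of 40 and 1 of 55. The differences were not tested. The NRF1 motif stood in 5 (5.26% against 1.21%), namely Atp5k, Cox6a1, Ndufa11, Ndufaf4 and Ndufaf5. The YY1 motif AAGATGGCG stood in 5 (5.26% against 1.91%), the ETS motif CCGGAAG in 17 (17.9% against 11.0%), the cAMP response element TGACGTCA in 4 (4.21% against 2.42%) and the Sp/KLF motif GGGGCGGGG in 10 (10.5% against 14.6%). Against promoters with H3K27ac, where the shares were 1.96% for NRF1, 3.17% for YY1 and 17.9% for ETS, the difference narrowed for NRF1 and YY1 and was gone for ETS. It depended on the window: from 500 bases before to 100 after, ETS stood in 26.3% of respiratory chain promoters against 22.4% of those with H3K27ac, YY1 in 11.6% against 4.40% and NRF1 in 6.32% against 2.20%. Some genes with an aged JunB peak carried more than 1 of these motifs in the narrower window. Ndufa11 carried the NRF1 motif and the cAMP response element, and Cox6a1 the NRF1 and ETS motifs. Uqcrh carried the AP-1 and ETS motifs, and Atp5h and Ndufaf8 the ETS and YY1 motifs.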

How the data were processed

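CUT&RUN libraries were made from freshly isolated MuSCs. Per the study's methods and the labels, the authors aligned trimmed, quality-filtered reads to mm10 (Bowtie2), removed redundant ones, and called peaks per library in MACS2 at a p-value limit. Versions are not given in the sources used here. The deposited lists give for each peak a score, the fold enrichment (a ratio over the caller's background), −log10 p-value, −log10 q-value and summit. The authors' processing kept no read counts in these files, so depth by library and read noise are unknown. List length depends on depth and enrichment as well as binding. The methods also tie the H3K27ac signal to an outside epigenome project.

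Intervals were joined to all annotated TSSs of protein-coding genes in GENCODE M21 (at least 1 bp overlap with the TSS ± 3 kb) in Python 3.11.15 with numpy 2.4.6, scipy 1.17.1 and pysam 0.24.0. The overlap code was tested on simulated data, where 2000 of 2000 genes matched bedtools 2.31.1 and 500 of 500 planted motifs were found. Shares have exact Clopper-Pearson 95% intervals. Sequences came from the GRCm38.p6 reference. Genes were named when they had a JunB peak in all 4 JunB libraries, were among the 12 strongest aged-only genes or the 5 highest of a library, lacked H3K27ac, or were tissue-restricted forms or their counterparts; genes with 1 or 2 young calls, the weakest aged-only genes, those listed by motif or complex and the named pathway genes were added after their values were seen. The members and lists were chosen with earlier results of these data known; ribosomal protein and proteasome genes were added as comparison sets after seeing the data. No test between groups was made, with 1 aged library. Alternatives varied the window, peak strength, list length, TSS set, members and young replicates. Results for some single genes are not reported here by name, though the genes are in all counts.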

Additional observations from a re-analysis of the deposited data

Results flagged for a closer look

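The mitochondrial genome, whose own respiratory chain genes (mt-Nd1, mt-Co1, mt-Cytb and others) are not among the 95, held called peaks in each JunB list, which flagged it as signal outside the reported comparisons. There were 4, 6 and 4 in young replicates 1, 2 and 3, 3 in the aged library and 2 in the H3K27ac library. The JunB intervals were mixed in width, from 269 to 4102 bp, and both H3K27ac intervals were broad. The JunB fold enrichments ran only from 1.25 to 2.47, against medians of 5.81, 8.42, 9.33 and 5.32 at the nuclear genes, and the longest H3K27ac interval spanned 6266 bp over mt-Nd1, mt-Nd2 and mt-Co1. The cause was not tested.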

How the results depend on the processing

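No paired analysis was possible because the aged and H3K27ac groups have 1 library each and no result comes from a test. Of the values computed under the alternatives for the main comparisons, 143 moved by less than their spread or by less than 1.5 times and 29 moved further. The aged difference from all genes among those with H3K27ac changed sign, from 3.47 points to −0.0468 with every JunB list at 3863 peaks and −6.52 at 2000 peaks per list. With a window of 500 bp, the H3K27ac difference from all genes was 46.6 points and the young mean difference 3.91. The aged excess over the young mean was 25.7 genes at −log10 q of at least 2, 22.7 at −log10 p of at least 5.33 and 26.7 without the assembly factors. With every JunB list at 3863 peaks, the aged count was 14, its difference from all genes 5.91 points, the aged-only count 6, the young-only count 2, the excess 7.33 and the H3K27ac genes with aged JunB 14. At 2000 peaks per list, H3K27ac included, the aged count was 9 (4.90 points), H3K27ac 16 (11.6 points), the young mean 3.67 genes, aged-only 4, the excess 5.33, H3K27ac genes with aged JunB 1, and the young difference among H3K27ac genes −8.37 points. Among the 41 genes with no other TSS in their windows, the aged count was 15, H3K27ac 35 (46.3 points), the young mean 3.33, aged-only 11, the excess 11.7 and H3K27ac genes with aged JunB 14; fewer genes entered these counts. The young-only count of 1 became 0 when a young peak was asked for in at least 2 libraries, and was 0 to 1 with each young replicate left out, 0 without replicate 1, which held the Cox7a2 peak. The AP-1 count in promoters was 9, against 2, when read from 500 bases before to 100 after the TSS (9.47% against 8.59% of all coding promoters), and the YY1 count 11 against 5. The aged JunB summits at these genes with an AP-1 motif numbered 3 within 100 bp, against 1 within 50 bp. The lists hold no read counts, so a missing young call cannot be told from a weak one.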
